A study of Mus musculus with 5 samples.

Results

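The steroid receptor genes Nr3c1 and Pgr and 5 genes known to answer to glucocorticoids or progestins (Fkbp5, Sgk1, Zbtb16, Tsc22d3 and Per1) were followed in cells derived from mouse embryonic stem cells and exposed to MPA. These 7 genes were taken by name from the platform annotation, out of 18193 genes with a single symbol, and had 21 of the 45101 probe sets of the array. Each gene is described by its brightest probe set on average, and its other probe sets are given beside it. The brightest probe set of each of the 7 was above the floor on all 5 arrays. The floor was a signal of 86.8, the median over every probe set but the controls, and lower signals were raised to it.

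The cells had been differentiated towards a pancreatic fate on gelatin. The untreated groups were collected at day 5, day 6 and day 8, and 2 µM MPA was added to day 5 cells that were collected at day 6 (1 day of MPA) or day 8 (3 days of MPA). The labels give no strain, genotype or vehicle. Every group is a single array, so sizes of differences are given without a test, and the spread between cultures is unknown. The labels do not write MPA out. The letters are in use for mycophenolic acid, an inhibitor of guanine nucleotide synthesis, and for medroxyprogesterone acetate, a synthetic progestin that also binds the glucocorticoid receptor. The question put to the 7 genes was whether the cells with MPA showed a steroid-like response. Whether the medium held a steroid is not given in the sources used here.

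Between 46.7% and 51.9% of an array's probe sets exceeded the floor. The Gapdh 3'/5' ratio, which rises as RNA degrades, was 1.08 at day 5. It was 1.19 (control) and 1.31 (MPA) at day 6, and 1.55 and 1.57 at day 8. The same ratio for Actb was 2.08 at day 5, 3.04 (control) and 3.06 (MPA) at day 6, and 2.81 and 2.71 at day 8. The 2 ratios thus did not follow the same course, and the part of RNA quality in the differences was not tested. Of 15 markers listed for the labelled fate, 10 to 12 were above the floor on each array. Foxa1, Foxa2, Gata6 and Epcam, genes of endoderm and epithelium, were above it on all 5. Pdx1, the defining gene of pancreatic progenitors, was under it on 4 arrays and had a signal of 90.4 in the day 8 cells with MPA.

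Steroid receptors are transcription factors that chaperones hold ready until a hormone binds, after which they act on DNA in the nucleus. Nr3c1 encodes the glucocorticoid receptor and Pgr the progesterone receptor, and both recognise the same DNA element, the sites AGAACA and TGTTCT facing each other across a spacer of 3 bases. Fkbp5 encodes a co-chaperone that dampens the receptor, Sgk1 a serum- and glucocorticoid-regulated kinase, Tsc22d3 the glucocorticoid-induced leucine zipper protein, Zbtb16 the zinc finger repressor PLZF, and Per1 a component of the circadian clock. Several of these genes answer to other signals too, as Sgk1 does to serum and Per1 to the clock, and Zbtb16 is also expressed in neural progenitors.

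Promoter windows (RefSeq, GRCm38.p6; 250 bases before to 50 bases after a start site) were at hand for 5 of the genes, 13 windows in all. They were searched on both strands for the single site AGAACA, for the full element (AGAACA, any 3 bases, TGTTCT), for its looser form (GNACA, any 3 bases, TGTNC), for the E-box CACGTG that clock factors bind, and for the cyclic AMP element TGACGTCA and its core TGACG. Matches to the full element contain matches to the looser form and to the single site. Nr3c1 and Zbtb16 were not among the 5. The 3 windows below were picked with the MPA differences known, so the contrast between them is no test of the element. Sgk1 was the target gene about 2-fold higher with MPA, and its window holds the full element. Fkbp5 and Per1 are classical steroid targets whose windows hold no match to the single site or either form of the element. Capitals mark every match.
Sgk1, chr10:21993640-21993939, plus strand: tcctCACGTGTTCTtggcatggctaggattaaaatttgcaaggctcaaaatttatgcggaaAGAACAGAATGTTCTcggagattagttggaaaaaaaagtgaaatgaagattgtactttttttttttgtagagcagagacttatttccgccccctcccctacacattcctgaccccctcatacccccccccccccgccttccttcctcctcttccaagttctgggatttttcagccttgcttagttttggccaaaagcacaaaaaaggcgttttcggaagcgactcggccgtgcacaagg
Fkbp5, chr17:28486100-28486399, minus strand: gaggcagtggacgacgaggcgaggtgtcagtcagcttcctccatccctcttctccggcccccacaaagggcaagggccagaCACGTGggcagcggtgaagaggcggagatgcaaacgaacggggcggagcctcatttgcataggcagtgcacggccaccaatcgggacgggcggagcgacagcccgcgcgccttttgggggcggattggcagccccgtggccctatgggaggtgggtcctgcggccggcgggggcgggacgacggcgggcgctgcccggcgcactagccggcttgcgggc
Per1, chr11:69098699-69098998, plus strand: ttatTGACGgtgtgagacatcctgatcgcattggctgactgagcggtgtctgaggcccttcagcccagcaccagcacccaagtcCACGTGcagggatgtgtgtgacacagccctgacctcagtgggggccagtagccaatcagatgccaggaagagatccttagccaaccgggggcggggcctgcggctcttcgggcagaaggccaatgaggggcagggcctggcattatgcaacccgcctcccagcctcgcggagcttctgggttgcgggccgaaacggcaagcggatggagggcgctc

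The full element in the Sgk1 window spans positions -189 to -175 from the start site, and a further single site at -242 to -237 overlaps an E-box at -246 to -241. Over 32851 windows of this length in the RefSeq table, 3 held the full element (0.00913%), 0.475% the looser form, 19.0% the single site, 7.15% the E-box, 1.79% TGACGTCA and 20.8% TGACG. Sgk1 has 6 windows, and the other 5 held no full element. Among these, single sites lay at -195 to -190 and, in a different window, at -13 to -8. A further one held TGACG at -236 to -232. The Fkbp5 window held an E-box at -169 to -164, and the Per1 window shown an E-box at -166 to -161 and TGACG at -246 to -242. The other Per1 window held TGACG at -132 to -128. Of the 3 windows of Tsc22d3, 1 held the single site and another TGACG at -224 to -220, and the Pgr window held none of the motifs. A match describes letters in a window, not binding and not a cause, and sequence outside the windows was not searched.

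Of the 7 genes, Sgk1 was about 2-fold higher with MPA at both days, Zbtb16 was over 2-fold lower at both days, and the other 5 were less than 2-fold apart at either day. At day 6, 1 of 7 was 2-fold or more apart (0 higher, 1 lower), against 7.17% of the 12240 genes measured (4.02% higher, 3.15% lower). At day 8 it was 2 of 7 (1 higher, 1 lower), against 6.91% of 12599 genes (3.72% higher, 3.18% lower). A gene was measured where at least 1 array of the pair was above the floor. The median log2 difference of the 7 was 0.17 at day 6 and -0.05 at day 8, against 0.02 and -0.02 over all measured genes, and it ran from -0.08 to 0.06 at day 8 over the alternatives in processing. By any size, 5 of 7 were higher with MPA at day 6 (51.5% of all genes; 4 of 7 with median centring) and 3 of 7 at day 8 (48.1%). Of all 2-fold differences at day 6, 56.1% were higher with MPA, but 45.2% with median centring of the arrays and 45.8% with log2(signal + floor).

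**Figure D1:**
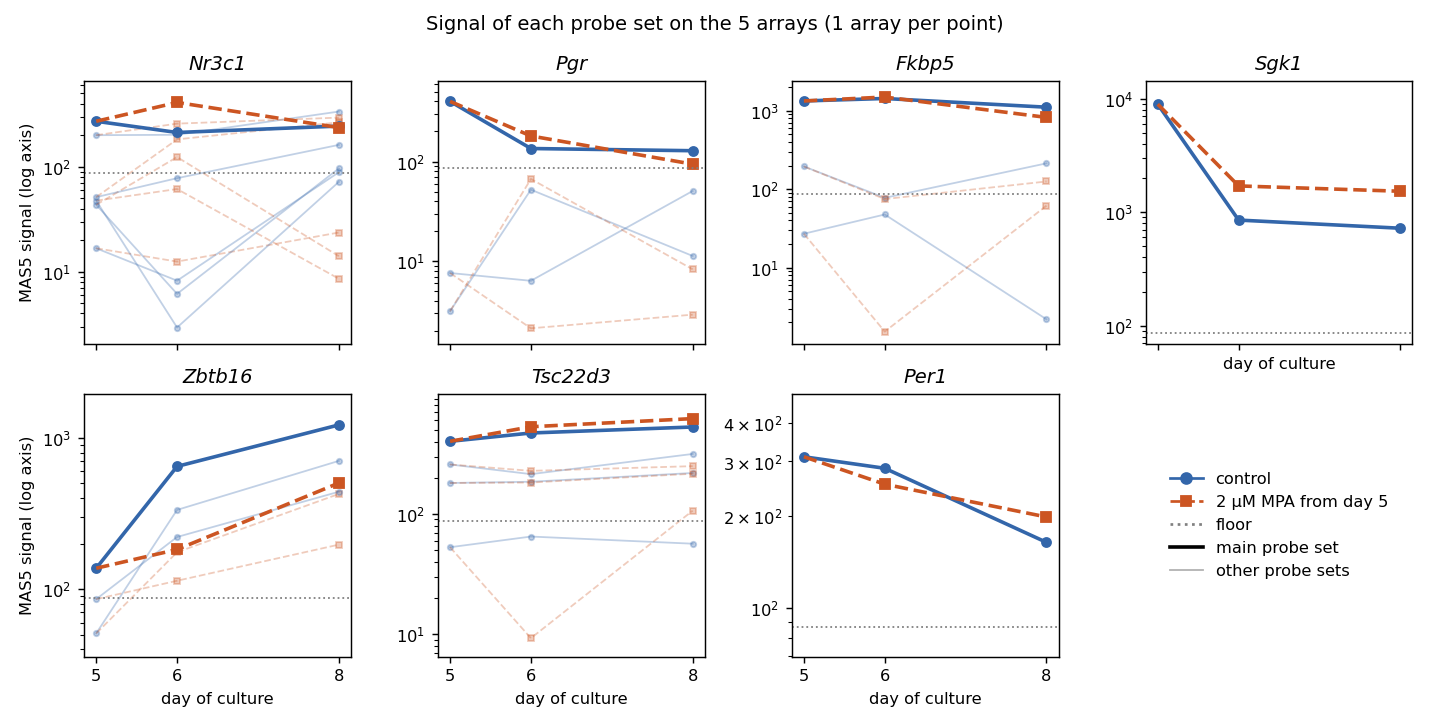
Signal (log axis, its own scale in each panel) of every probe set of the 7 genes against the day of culture, 1 array per point. Blue circles are untreated cells and orange squares cells given 2 µM MPA from day 5, drawn from the shared day 5 array; thick lines are the brightest probe set, faint lines the others, and the dotted line is the floor at 86.8. With MPA, Sgk1 lies above and Zbtb16 below the control of the same day at both days.

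Nr3c1, the glucocorticoid receptor gene, had a signal of 271 at day 5, of 212 (control) and 410 (MPA) at day 6, and of 244 (control) and 236 (MPA) at day 8. The day 6 array with MPA was the highest, and the other 4 lay between 212 and 271. The difference with MPA was 1.93-fold (log2 0.95) at day 6, just inside the 2-fold mark, and log2 -0.05 at day 8, where it was 0.05 with the mean over probe sets. Of its 6 probe sets, all 4 that could be measured at day 6 were higher with MPA, by log2 differences of 0.35 to 1.07 (the latter a bound, with the control at the floor). At day 8, 1 of 5 was higher (0.71) and 4 were lower, the lowest by -0.19. The next brightest probe set read 202 and 258 at day 6 and 336 and 294 at day 8 (control, then MPA), so the probe sets shared a direction at day 6 but not a size.

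Pgr, the progesterone receptor gene, had a signal of 401 at day 5, of 135 (control) and 180 (MPA) at day 6, and of 128 (control) and 94.1 (MPA) at day 8. It was highest at day 5, and its day 8 signals were close to the floor. In untreated cells it was 2.97-fold lower at day 6 than at day 5. With MPA it was 1.34-fold higher at day 6 and 1.36-fold lower at day 8, opposite directions that 16.1% of the 11007 genes measured at both days also had with a log2 size over 0.25 each time. Both other probe sets of Pgr were under the floor on all 5 arrays. The bacterial target trpnX, which the cells lack, reached a signal of 59.4.

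Other steroid receptor genes, of which 3 of the 4 listed were matched, were dim. The gene left unmatched could not be read. Nr3c2, of the mineralocorticoid receptor, was under the floor on all 5 arrays. Of the oestrogen receptor genes, Esr1 exceeded it only in the day 8 cells with MPA, at 110, and Esr2 only in the day 6 cells with MPA, at 90.8.

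Sgk1, the kinase gene, had a signal of 8960 at day 5, of 854 (control) and 1707 (MPA) at day 6, and of 724 (control) and 1532 (MPA) at day 8. Both arrays with MPA lay above both later controls and far below day 5. The difference with MPA was a log2 of 0.9999 at day 6, a hair under 2-fold, and of 1.08 at day 8 (2.12-fold). Over the 11007 genes measured at both days, 0.354% were 2-fold or more higher at both and 0.5% were 1.9-fold or more higher at both, as Sgk1 was. The 1.9-fold mark is looser than the 2-fold mark used elsewhere. It takes in Sgk1, which missed 2-fold at day 6, so the 0.5% is no test of Sgk1. In untreated cells the day 6 and day 8 levels of Sgk1 were 10.5-fold and 12.4-fold below day 5. Its level with MPA was 5.25-fold below day 5 at day 6 and 5.85-fold below it at day 8. Sgk1 has a single probe set here, so no other could be set beside it.

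Over the first day without MPA, 3 of the 7 genes were 2-fold or more apart (Pgr and Sgk1 lower, Zbtb16 higher), against 9.86% of 12611 genes (5.46% higher, 4.4% lower). With the mean over probe sets Pgr was not among them, at a log2 difference of -0.52 in place of -1.57. In that mean its other probe sets, under the floor throughout, count as no difference. Between day 6 and day 8 without MPA it was 0 of 7, against 13.5%.

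Zbtb16, the PLZF gene, had a signal of 137 at day 5, of 648 (control) and 183 (MPA) at day 6, and of 1218 (control) and 503 (MPA) at day 8. Each array with MPA lay below the control of its day and above day 5. With MPA it was 3.54-fold lower after 1 day and 2.42-fold lower after 3 days, and 0.445% of the genes measured at both days were 2-fold or more lower at both. In untreated cells its day 6 and day 8 levels were 4.72-fold and 8.87-fold above day 5. The cells with MPA also had more of it at day 8 than at day 6, by 2.75-fold. All 3 probe sets were lower with MPA at both days, by log2 differences of -1.83 to -0.93 (day 6) and of -1.28 to -0.73 (day 8). In bulk RNA, fewer cells that express Zbtb16 and less of its RNA per cell cannot be told apart.

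Markers of neural cells, among them Sox2, which is also in the pluripotent list below, were lower with MPA as well. Of 15 listed, 9 of the 12 measured were lower at day 6 (8 by 2-fold or more, median log2 difference -1.18) and 14 of 14 at day 8 (11 by 2-fold or more, median -2.37). Over all measured genes, 3.15% were 2-fold or more lower at day 6 and 3.18% at day 8. Their summed signal was 8900 at day 5, 6398 (control) and 3210 (MPA) at day 6, and 20580 and 5316 at day 8, and Neurog2 was under the floor on all 5 arrays. None of the 14 tested passed the limma fit described below, and 9 were lower at an unadjusted p under 0.05. Over all genes in that fit, 6.37% had such a p in either direction. Among the neural markers, Zic1, of a neural transcription factor, had log2 differences of -1.89 (a bound, with MPA at the floor) and -4.44, and Rfx4, another, of -1.24 and -3.38 (a bound). The 3 that were higher at day 6 were Zic2 (0.33), Fabp7 (0.18) and Nes (0.06, with a sign that turned in some alternatives). At day 8 the differences of Nes and Tubb3 were small, at -0.24 each. The part of these markers in the Zbtb16 difference was not tested.

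Fkbp5, the co-chaperone gene, had a signal of 1331 at day 5, of 1430 (control) and 1492 (MPA) at day 6, and of 1108 (control) and 822 (MPA) at day 8. The 5 arrays spanned a log2 range of 0.86, and the day 8 cells with MPA were lowest. The log2 difference with MPA was 0.06 at day 6 (-0.02 with median centring) and -0.43 at day 8. Its next probe set was under the floor on both day 6 arrays and lower with MPA at day 8, with a log2 difference of -0.77, and the last was under the floor on all 5 arrays.

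Tsc22d3, the leucine zipper gene, had a signal of 401 at day 5, of 471 (control) and 531 (MPA) at day 6, and of 528 (control) and 620 (MPA) at day 8. It was 1.13-fold and 1.17-fold higher with MPA, within a log2 range of 0.63 over the 5 arrays. Its 4 probe sets had no common direction, with 2 of 3 measured higher at day 6 and 2 of 4 at day 8, where log2 differences ran from -0.34 to 0.29 (the latter a bound).

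Per1, the clock gene, had a signal of 311 at day 5, of 285 (control) and 253 (MPA) at day 6, and of 164 (control) and 198 (MPA) at day 8. Both day 8 arrays were lower than the other 3. With MPA it was 1.13-fold lower at day 6 and 1.21-fold higher at day 8, on its single probe set.

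**Figure D2:**
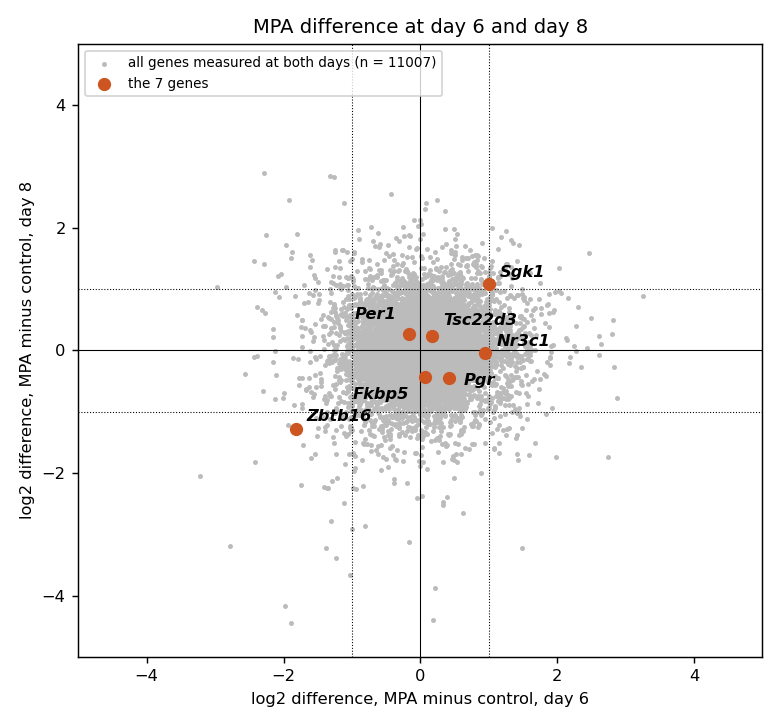
Log2 difference between cells with MPA and controls at day 6 (x axis) and day 8 (y axis) for the 7 genes (orange) and all 11007 genes measured at both days (grey), with dotted lines at 2-fold. Zbtb16 lies beyond both lines on the lower side, Sgk1 lies at 0.9999 and 1.08, and the other 5 lie inside the lines.

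The 2 days are the only repeat of the MPA comparison. They were joined in a limma fit over the 4 arrays of days 6 and 8, with terms for day and MPA, on 11599 genes. Its 1 residual degree of freedom measures how far the days disagree, not how far cultures do. Of the 7 genes, 0 had a Benjamini-Hochberg adjusted p under 0.05 in limma, as 0.00862% of genes did (1 gene), and 2 had an unadjusted p under 0.05, as 6.37% did. These shares stand beside the limma counts of the other lists too. For Sgk1 the log2 difference in limma was 1.04 (SE 0.26; adjusted p 0.498; higher at both days). For Zbtb16 it was -1.55 (SE 0.33; adjusted p 0.492; lower at both days). They stood at ranks 70 and 28 by p. With day as a straight line and the day 5 array included, Sgk1 had a log2 difference of 0.38 (adjusted p 0.995 in limma), and Zbtb16 alone of the 7 had an unadjusted p under 0.05. The Sgk1 controls, at 8960, 854 and 724 on days 5, 6 and 8, did not lie on a straight line. Neither did those of Zbtb16, which rose by a log2 of 2.24 from day 5 to day 6 and 0.91 from day 6 to day 8. The adjusted p-values of the other 5 in limma lay between 0.915 (Nr3c1) and 0.995 (Pgr).

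Other known glucocorticoid target genes showed no common direction at day 6 and were more often higher than lower at day 8. Of 35 listed, 32 were matched. At day 6, 14 of 28 measured were higher with MPA and 14 lower, with 1 higher and 5 lower by 2-fold or more (median 0.03; -0.07 to 0.05 over the alternatives). At day 8, 20 of 27 were higher and 7 lower, with 3 higher and 0 lower by 2-fold or more (median 0.26; 0.24 to 0.42). Of 26 measured at both days, 7 were higher at both, 2 lower at both and 17 opposite, where 46.9% of all genes were opposite. In limma, 0 of 28 tested passed, and 0 had an unadjusted p under 0.05. Over all measured genes, 51.5% were higher at day 6 and 48.1% at day 8, shares that stand beside the other lists too. By 2-fold or more, 4.02% of all measured genes were higher and 3.15% lower at day 6, and 3.72% and 3.18% at day 8.

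Ddit4, of an inhibitor of mTOR signalling, had a signal of 39138 at day 5, of 21820 (control) and 7311 (MPA) at day 6, and of 1367 (control) and 3790 (MPA) at day 8. It was 2.98-fold lower with MPA at day 6 and 2.77-fold higher at day 8. Stc1, of the hormone stanniocalcin, was likewise lower with MPA at day 6 (at least 2.97-fold) and higher at day 8 (at least 1.87-fold). By a log2 size over 0.25 each time, 8 of the 26 genes were lower and then higher, and 3 were higher and then lower. Over all 11007 genes measured at both days, 16.1% were opposite by this size in either order. Among the 8 were the metallothionein genes, Mt1 with log2 differences of -1.11 and 0.61 and Mt2 with -0.96 and 0.76. Dusp1, of a phosphatase that acts on MAP kinases, had -0.60 and 0.57. The 3 with the opposite order were Gadd45a, of a stress-induced growth arrest protein (0.99 and -0.79), Cebpd, of a transcription factor (0.67 and -0.56), and Rgs2, of a regulator of G protein signalling (0.37 and -0.66), whose day 6 value was -0.01 with the mean over probe sets. Cdkn1c, of the cell cycle inhibitor p57, was 2.87-fold and then 1.06-fold higher, and Edn1, of endothelin, 1.14-fold and 2.72-fold higher. The liver targets Tat and Pck1 were under the floor on all 5 arrays.

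**Figure D3:**
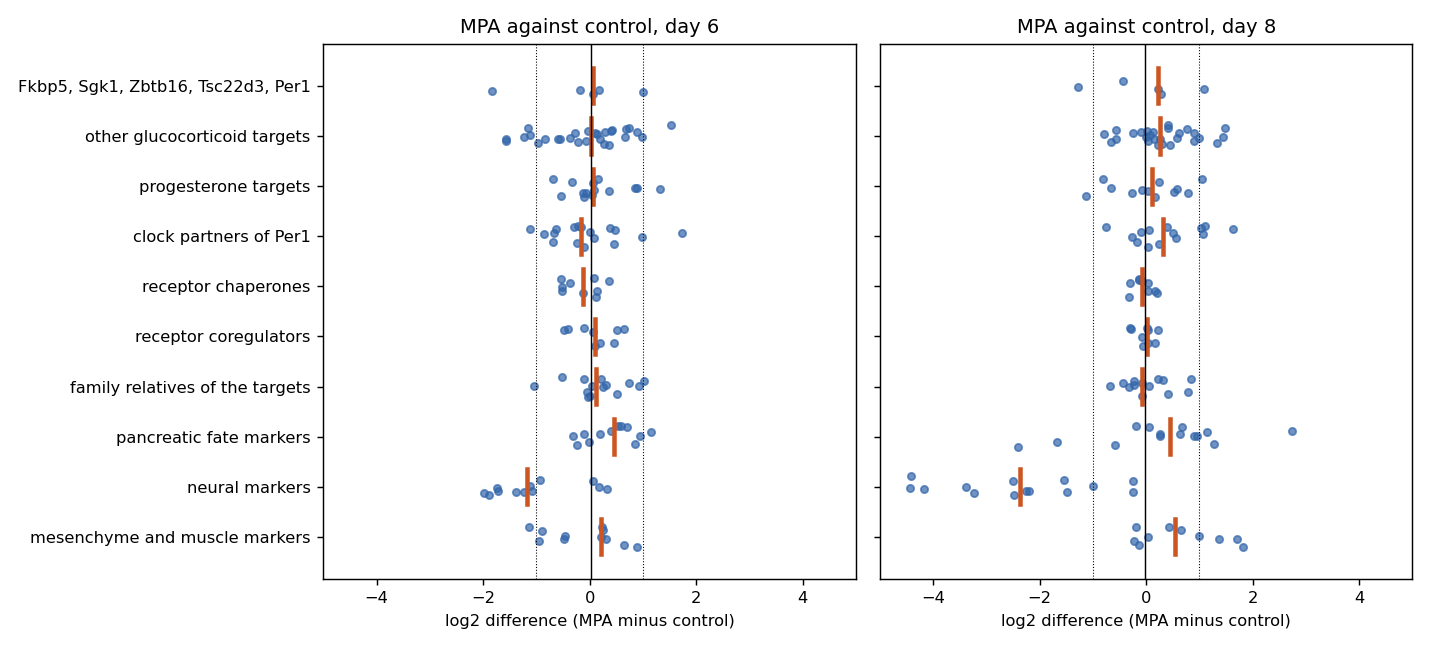
Log2 difference with MPA at day 6 (left) and day 8 (right) of each measured gene (blue points, spread vertically for clarity) in 10 gene lists, with the list's median (orange bar), the median of all measured genes (solid line) and 2-fold (dotted lines). Neural markers lie to the left at both days, with medians of -1.18 and -2.37, and other glucocorticoid targets have medians of 0.03 and 0.26.

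Genes listed as progesterone receptor targets in the uterus had medians near 0. The list shares Rgs2, Ncoa2 and Hsd11b2 with other lists given here, so the lists are not separate evidence. Of 19 listed, 17 were matched, 8 of 14 measured were higher with MPA at day 6 (median 0.05; 5 of 13 with median centring) and 7 of 12 at day 8 (median 0.10). In limma 0 of 12 tested passed, and 1 had an unadjusted p under 0.05, Bmp2. This gene of a bone morphogenetic protein had a signal of 723 at day 5, of 1406 (control) and 3533 (MPA) at day 6, and of 292 (control) and 604 (MPA) at day 8. Both arrays with MPA were above the control of their day, by 2.51-fold and 2.07-fold (limma log2 1.19, SE 0.27, adjusted p 0.492). Wnt4, of a Wnt ligand, had log2 differences of -0.07, with a sign that turned under quantile normalization and with the mean over probe sets (up to 0.35), and of -1.13 (2.19-fold lower). Lifr, of a cytokine receptor, was 1.86-fold and 1.18-fold higher.

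Among 18 clock genes that work with Per1, 7 of 17 measured were higher with MPA at day 6 (median -0.16) and 10 of 14 at day 8 (median 0.32), and 0 of 14 tested passed in limma, with 1 at an unadjusted p under 0.05. That was Per2, a paralog of Per1. Per2 had a signal of 82.2 at day 5, of 104 (control) and 348 (MPA) at day 6, and of 108 (control) and 233 (MPA) at day 8, so both arrays with MPA lay above the 3 controls. It was 3.34-fold and 2.15-fold higher with MPA (limma adjusted p 0.623), and its log2 difference went as low as 0.49 and 0.40 over the alternatives. Bhlhe40, of a clock repressor, was 2.18-fold lower at day 6 and 3.10-fold higher at day 8. Rora, of a clock activator, had log2 differences of -0.68 and 1.02, and Clock itself of -0.16 (0.08 with the mean over probe sets) and 1.06.

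On their brightest probe sets, the matched chaperones that hold steroid receptors and coregulators that act with them were all less than 2-fold apart with MPA. Over the alternatives the day 6 log2 difference of the chaperone gene Hspa8 reached 1.10, in place of 0.13. Of 12 chaperone genes listed, 9 were matched, and 4 were higher and 5 lower with MPA at each day (medians -0.13 and -0.08). The largest differences at day 6 were those of Ppp5c (-0.54), Fkbp4 (-0.53), Stub1 (-0.51) and Hspa4 (-0.37). Fkbp4, a co-chaperone that aids receptor transport, was also lower at day 8 (-0.32), and at both days its sign turned without probe sets of the _s_at, _x_at and _a_at kind. The day 6 sign turned in the same way for Ppp5c (0.05) and with the mean over probe sets for Hspa4 (0.16), so that of these 4 genes Stub1 alone kept its day 6 direction in all alternatives run. Of 9 coregulator genes, 6 were higher at day 6 and 5 at day 8 (medians 0.10 and 0.01). Nrip1, of a corepressor, was 1.56-fold and then 1.01-fold higher, and Ep300, of a coactivator, 1.43-fold higher and 1.04-fold lower. Ncoa3 had log2 differences of -0.47 (0.07 with the mean over probe sets) and 0.04, and Med1 of 0.45 and -0.28. In limma 0 of 9 passed in each list, and 0 of 9 had an unadjusted p under 0.05.

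Pgr, Sgk1 and Zbtb16 spanned a log2 range of at least 1 over the 5 arrays, and the genes nearest to each in pattern were found among 12079 genes by the root mean square distance between centred log2 profiles. Nearest to Sgk1 were Igfbp3, of an insulin-like growth factor binding protein (0.32), Arid3b, of a DNA-binding protein (0.32), and Shh, of a hedgehog ligand (0.35). Igfbp3 had a signal of 13037 at day 5, of 1514 (control) and 2689 (MPA) at day 6, and of 1844 (control) and 3566 (MPA) at day 8. Picked for their likeness to Sgk1, these 3 genes were likewise brightest at day 5 and higher with MPA than without at both days. Nearest to Zbtb16 were Pax3, of a dorsal neural tube and neural crest factor (0.30), Tshz3 (0.34) and Hoxb3 (0.41). Pax3 had a signal of 75.2 at day 5, of 387 (control) and 116 (MPA) at day 6, and of 987 (control) and 215 (MPA) at day 8. Nearest to Pgr were Bmper (0.07), Parp12 (0.14) and Myo10 (0.14). The profiles of Shh, Pax3, Tshz3 and Parp12 took in signals under the floor that were raised to it. These distances rest on 5 arrays and describe likeness alone.

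**Figure D4:**
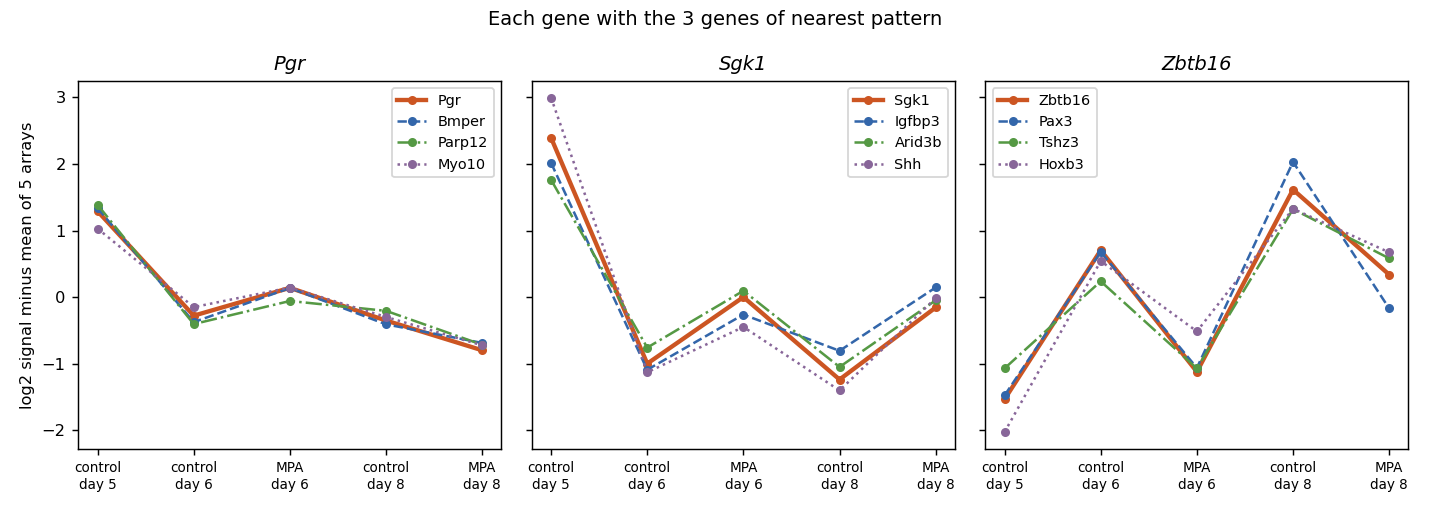
Log2 signal minus its mean over the 5 arrays (y axis) on each array (x axis) for Pgr, Sgk1 and Zbtb16 (thick orange) and the 3 genes nearest to each in pattern (thin lines). Sgk1 and its neighbours are high at day 5 and lower on the 4 later arrays, and Zbtb16 and its neighbours are higher in the controls of days 6 and 8 than with MPA. The neighbours were picked for this likeness.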

How the data were processed

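RNA from the 5 samples was made into biotinylated cRNA and measured on Affymetrix 3' arrays, per the labels' protocols. The deposited values are linear intensity, 1 value a probe set, made with MAS5 (submitters' processing notes; its version and settings: not given in the sources used here). All 5 arrays had a 2% trimmed mean of 500, so totals carry no depth.

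Probe sets with 1 symbol in the platform annotation were used (34945; 932 had several, 9160 were unnamed here and 64 were controls). Signals were raised to the floor and taken to log2; where 1 array of a pair lay at the floor, the fold is a bound, "at least". The limma fit (limma 3.58.1 in R 4.3.3; lmFit, eBayes with trend and robust; Benjamini-Hochberg) took genes over the floor in 2 or more of its 4 arrays. It was also run on simulated data with the same MPA effect at both days, which cannot show how it fares where the days differ. Python 3.11.15, numpy 2.4.6 and pandas 2.3.3 did the rest.

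The 7 genes, lists and motifs were chosen with earlier results of these data known. Named were the 7, up to 4 genes a list with the largest MPA difference at either day (not all printed), and the 3 nearest patterns. Mt1, Mt2, Dusp1, Gadd45a, Cebpd, Rgs2, Tat, Pck1, Sgk2, Sgk3, Hsd11b1, Neurog2, Zic2, Nes, Tubb3, Pdx1, Foxa1, Foxa2, Gata6 and Epcam were singled out after their values were seen. The alternatives were quantile normalization, median centring, other floors (25th and 65th percentile), log2(signal + floor), averaging probe sets, leaving out _s_at, _x_at and _a_at probe sets, and for the fit day as a straight line, no day term, plain eBayes and no filter.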

Additional observations from a re-analysis of the deposited data

Results flagged for a closer look

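Pgr was the only gene of the 7 whose differences with MPA were over 0.25 in log2 size at both days and opposite in direction. The log2 difference was 0.42 at day 6 and -0.45 at day 8, from 1 array per group, and the difference between the days was not tested. With the mean over probe sets both were under 0.25 in size, at 0.14 and -0.15. That mean counts the other probe sets of Pgr, under the floor on every array, as no difference, so it had to be smaller. Under the higher floor (65th percentile) the day 6 difference was 0.03 and day 8 could not be measured.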

How the results depend on the processing

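The count of the 7 genes 2-fold apart at day 8 was 1 in place of 2 with log2(signal + floor), where Sgk1 had a log2 difference of 0.998 and Zbtb16 alone remained. The other counts (MPA at day 6, both control comparisons, the limma fit) stayed within 1.5 times in the alternatives run, although the count of day 6 against day 5 in the controls was 2 in place of 3 with the mean over probe sets, without Pgr. The log2 difference of Sgk1 lay between 0.91 and 0.9999 (day 6) and between 0.998 and 1.11 (day 8), that of Zbtb16 between -1.91 and -1.24 and between -1.34 and -1.06. In limma, Sgk1 had 0.38 in place of 1.04 with day as a straight line and the day 5 array included, a line its controls did not follow. Adjusted p-values in limma ran from 0.193 (Sgk1) and 0.103 (Zbtb16) to 0.9997 for both. Smallest sizes over the alternatives were 0.30 for Lifr, 0.08 for Med1, -0.56 for Mt1, -0.55 for Stc1, -0.19 for Rora, -0.86 for Zic1 and -0.25 for Rfx4 at day 6, and 0.56 for Clock, 0.49 for Rora and 1.52 for Neurog3 at day 8. The day 6 difference of Nr3c1 was 0.48 with the mean over probe sets. In that mean a probe set at the floor on both arrays counts as no difference, which alone can make it smaller. In the fit the sign turned for Pgr (0.01 with log2(signal + floor)) and Per1 (-0.003 with the higher floor). Over all genes, 2-fold differences at day 6 numbered 492 higher and 385 lower, and with the lower floor 2264 and 2420, the higher floor 301 and 195, and the mean over probe sets 284 and 225. At day 8 they numbered 469 and 401, and then 2355 and 2419, 293 and 182, and 274 and 233. The limma fit called 1 gene of all, 7 with no filter and 0 in 5 alternatives. The day term pairs the arrays of a day, and without it the adjusted p of Sgk1 and Zbtb16 in limma was 0.9997. Leaving out 1 of the 4 arrays leaves the fit no residual degree of freedom and was not run.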

Other observations

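Relatives of the target genes were read in the same way. Sgk3, of a kinase related to Sgk1, had a signal of 302 at day 5, of 160 (control) and 268 (MPA) at day 6, and of 117 (control) and 203 (MPA) at day 8. It was 1.67-fold and 1.73-fold higher with MPA (limma adjusted p 0.811), with a day 8 log2 difference as low as 0.20 over the alternatives. Sgk2, another relative, had log2 differences of 0.01 (-0.08 with median centring) and -0.23, a bound with MPA at the floor. Fkbp2, of a relative of Fkbp5 in the endoplasmic reticulum, was 2.06-fold and 1.34-fold lower. Tsc22d1, of the family of Tsc22d3, was 1.16-fold and 1.79-fold higher, and at day 6 its sign turned with the mean over probe sets and without _s_at, _x_at and _a_at probe sets. Zbtb20 was at least 2.02-fold and then 1.25-fold higher, with a day 6 log2 difference as low as 0.08 over the alternatives, in place of 1.01. Of the 14 relatives, 9 of 14 measured were higher at day 6 and 6 of 13 at day 8 (medians 0.13 and -0.08), and 0 of 13 tested passed in limma, with 2 at an unadjusted p under 0.05. Hsd11b2, of the enzyme that inactivates glucocorticoids, had a signal of 903 at day 5, of 243 (control) and 438 (MPA) at day 6, and of 890 (control) and 1001 (MPA) at day 8. Hsd11b1, of the enzyme that activates them, was under the floor on all 5 arrays.

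Of the marker lists, pancreatic fate genes were higher with MPA in 8 of 12 measured at day 6 and 10 of 14 at day 8 (medians 0.46 and 0.45). Neurog3, of an endocrine progenitor factor, had a signal of 193 (control) and 1295 (MPA) at day 8 and was under the floor on the other 3 arrays. In all, 3 of these genes were higher and 2 lower by 2-fold or more at day 8. The 2 were Cxcr4, of a chemokine receptor (log2 0.40 at day 6 and -2.40 at day 8, a bound with MPA at the floor), and Sox17, of an endoderm factor (1.16 and -1.68). Pluripotent genes were higher in 2 of 8 and 2 of 5 (medians -0.51 and -0.15), and mesenchyme and muscle genes in 6 of 11 and 7 of 10 (medians 0.21 and 0.53). Of these 3 lists, 0 genes passed in limma, with 3 of 13, 1 of 8 and 3 of 10 at an unadjusted p under 0.05. Over all genes tested, 6.37% had such a p.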
